A study of Mus musculus with 6 samples.

Results

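Forkhead transcription factors are described here in mouse embryonic fibroblasts with a labelled knockout of the Abl kinase genes c-abl (Abl1) and arg (Abl2), and in wild-type fibroblasts. The genes were taken by symbol, as Fox followed by a class letter from a to s, a number and at most 1 further letter. They were represented by the brightest of their probe sets, by the mean of all 6 arrays, among probe sets annotated to 1 gene. The rule found 37 genes among the 18193 genes tested, and these 37 had 82 probe sets. There were 3 arrays of c-abl/arg knockout fibroblasts, labelled DKO, and 3 of wild-type fibroblasts, labelled WT. All cells were C57BL/6 cells from embryos at 14 days of gestation, with male and female pooled, grown in medium with 10% heat-inactivated fetal bovine serum. The series was made to ask what Abl kinases do for gene expression. The labels do not say how the alleles were made or whether the cells were immortalised, nor that replicate arrays were hybridised with RNA of separate cultures. The p-values therefore cover the spread of these 6 arrays, possibly a technical one.

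Forkhead factors share a winged-helix domain that binds DNA at sites close to the heptamer GTAAACA. They differ in where they act. The FoxO proteins are phosphorylated by the kinases Akt and Sgk1 downstream of PI3K, bound by 14-3-3 proteins and held in the cytoplasm; in the nucleus they drive genes of cell cycle arrest, oxidative stress defence and autophagy. FoxM1 drives genes of mitosis in dividing cells. The FoxC, FoxD and FoxF factors pattern embryonic mesenchyme, the FoxA factors open chromatin in endoderm, and the FoxP factors are mainly repressors. Much of the control of these proteins lies in phosphorylation and location, which RNA levels do not show.

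Signals are linear intensities, and differences are DKO minus WT of log2(signal + 16), tested with limma and adjusted over all 18193 genes. This scale understates the change of dim genes. Median signals per array were 14.4 to 14.7 in DKO and 13.4 to 13.7 in WT, and the number of arrays limits the precision. Abl1 had signals of 178, 171 and 161 on the DKO arrays, against 182, 183 and 189.9 on the WT arrays, and its log2 difference was -0.11 ± 0.054 (SE; adjusted p = 0.0933). Abl2 had 267, 253 and 243 on the DKO arrays, against 245, 262 and 261 on the WT arrays, with -0.011 ± 0.051 (SE; adjusted p = 0.874). The Abl1 groups did not overlap and the Abl2 groups did, and neither difference passed. Abl1 passed as lower with median scaling (-0.21, adjusted p = 0.00403) and as higher with probe sets averaged (0.13, adjusted p = 0.0421), and Abl2 passed as higher with chromosomes centred (0.15, adjusted p = 0.0229). Where these probes lie relative to the deleted parts was not analysed here, and DKO below means the arrays so labelled. Scaling on the poly-A spike controls put Abl1 and Abl2 at 0.36 and 0.48, and scaling on the hybridization spike controls at -0.35 and -0.26, all past an adjusted p of 0.05. The 2 spike references themselves differed between the groups, by -0.52 and 0.26 on the log2 scale. Arrays correlated at 0.998 or more within a group and at 0.904 or less between groups, over all genes, which are not independent replicates. The 3′ to 5′ log2 ratio of the beta-actin controls was 0.36 ± 0.012 in DKO and 0.47 ± 0.031 in WT (SD, n = 3; exact permutation p = 0.1, the smallest this design allows). That of the Gapdh controls was -0.17 ± 0.036 in DKO and -0.15 ± 0.042 in WT (SD, n = 3; exact permutation p = 0.6). The part of RNA quality in the results was not tested. The labelled fibroblast identity was mixed in its markers, of which 9 of 14 rose and 2 fell. Vim was high in both groups (7306 in DKO and 5288 in WT). The collagen gene Col1a2 averaged 9.71 ± 2.16 in DKO and 2284 ± 143 in WT and Col3a1 14.9 ± 4.09 in DKO and 1934 ± 109 in WT, near the floor of the arrays in DKO. Their log2 differences of -6.48 and -5.99 depended on the probe set, at -4.14 for Col1a2 with probe sets averaged and -2.498 for Col3a1 without x, s or a probe sets. The growth factor receptor gene Pdgfra averaged 1789 ± 56.7 in DKO and 9.99 ± 0.999 in WT and Postn, of the matrix, 238 ± 13.6 in DKO and 7.15 ± 0.964 in WT, near the floor in WT. Spike scaling moved the median of all genes by 0.15 and -0.091.

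Of the 37 forkhead genes, 9 were higher and 18 were lower in DKO than in WT at an adjusted p under 0.05, and 10 did not pass. Among all genes 24.3% were higher and 35.5% lower, together 59.8%, against 73% of the forkhead genes. With a difference of at least 2-fold (1 on the log2 scale) added, Foxa1, Foxc1 and Foxo3 were higher and Foxd1, Foxc2 and Foxo4 lower. These 6 genes are 16.2% of the family, close to the 15.9% of all genes (7.06% higher and 8.85% lower). The arrays of the groups did not overlap for 27 forkhead genes, 9 with DKO above and 18 with DKO below, against 64.7% of all genes, 25.7% above and 39% below. A group mean of at least 50 was reached by 16 of the 37 (43.2%), against 51.9% of all genes. The median difference was -0.098, beside -0.031 for all genes, and genes of the family passed in both directions. The arrays measure bulk RNA, in which fewer cells of a type and less RNA per cell cannot be told apart. The split depended on the scaling: 17 were higher and 6 lower with poly-A spike scaling, and 9 higher and 25 lower with hybridization spike scaling. All 9 higher calls held without each array in turn, and 8 of the 18 lower calls, each of a gene with both group means under 50, were lost without at least 1 array.

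**Figure D1:**
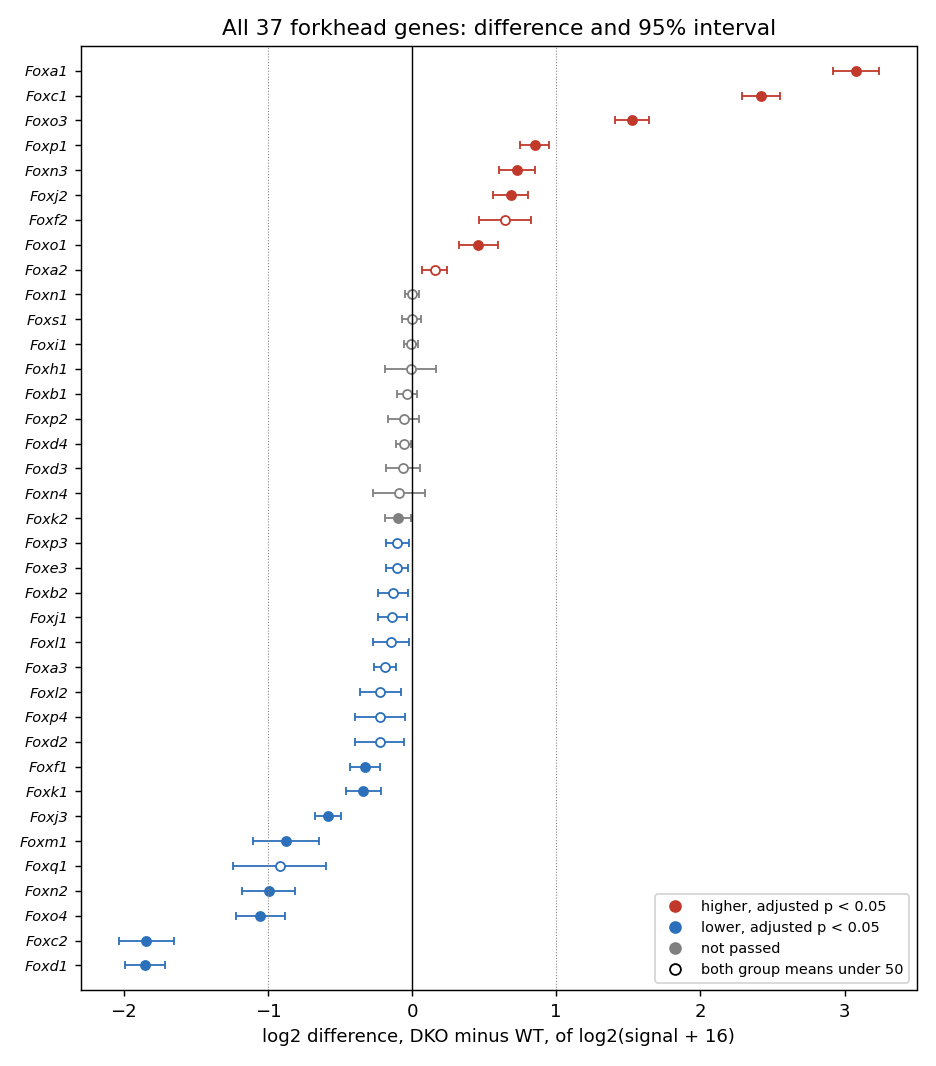
Log2 difference (horizontal axis, DKO minus WT of log2(signal + 16)) of all 37 forkhead genes (rows), with the 95% interval from limma; red is higher, blue lower and grey not passed, and open points have both group means under 50. Foxa1 (3.08), Foxc1 (2.42) and Foxo3 (1.52) lie right of the dotted line at 2-fold, and Foxd1 (-1.85), Foxc2 (-1.84) and Foxo4 (-1.05) left of the other; most open points lie near 0.

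The sequences before the annotated start are shown for the 4 of these 6 genes that the RefSeq promoter table lists, because they are the members with the largest differences. Each is the 250 bases before the start on the mouse build GRCm38.p6, 5′ to 3′ on the gene's strand. Capitals mark every match, on either strand, to the forkhead heptamer GTAAACA, the CCAAT box CCAAT, the GC box GGGCGG, the TATA box TATAAA and the CHR element TTTGAA; adjoining matches run together.
Foxa1 (chr12:57546112-57546361, - strand): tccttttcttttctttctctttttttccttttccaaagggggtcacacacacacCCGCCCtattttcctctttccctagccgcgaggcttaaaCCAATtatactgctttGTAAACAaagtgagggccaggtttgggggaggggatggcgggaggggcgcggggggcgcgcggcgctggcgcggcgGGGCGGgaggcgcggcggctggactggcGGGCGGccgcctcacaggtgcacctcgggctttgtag
Foxc1 (chr13:31806396-31806645, + strand): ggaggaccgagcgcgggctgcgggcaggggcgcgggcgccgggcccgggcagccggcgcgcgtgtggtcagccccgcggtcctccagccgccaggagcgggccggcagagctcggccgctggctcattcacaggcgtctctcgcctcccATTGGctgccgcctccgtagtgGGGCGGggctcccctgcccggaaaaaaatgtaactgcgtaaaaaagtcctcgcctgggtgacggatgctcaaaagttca
Foxd1 (chr13:98353995-98354244, + strand): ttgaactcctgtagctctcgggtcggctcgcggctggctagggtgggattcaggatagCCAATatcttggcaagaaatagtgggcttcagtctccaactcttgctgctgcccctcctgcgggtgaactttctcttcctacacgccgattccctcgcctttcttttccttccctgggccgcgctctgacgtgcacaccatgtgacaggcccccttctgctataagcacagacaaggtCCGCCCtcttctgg
Foxo3 (chr10:42276696-42276945, - strand): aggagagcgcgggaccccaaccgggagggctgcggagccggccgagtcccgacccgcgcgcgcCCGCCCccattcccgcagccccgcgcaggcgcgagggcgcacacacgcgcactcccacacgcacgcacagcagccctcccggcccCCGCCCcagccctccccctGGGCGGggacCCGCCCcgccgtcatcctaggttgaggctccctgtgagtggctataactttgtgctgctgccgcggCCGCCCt
The Foxa1 sequence holds the forkhead heptamer, which starts at base -141 counted from 0 at the annotated start. It was the only 1 of 24 forkhead genes with an entry to hold it in the window from 250 bases before to 50 after the start, against 4.05% of 27025 genes. GC boxes were found for 18 of the 24 (75%), against 38.2% of all genes, and CCAAT boxes for 13 (54.2%), against 41.1%. These shares are not particular to forkhead genes. Among the FoxO and FoxM1 target genes described below, 80% and 75% had a GC box, and 53.3% and 90% a CCAAT box. The Foxo3 sequence holds 5 GC boxes and no CCAAT box, and 31 CpG pairs against 21 in Foxa1, 29 in Foxc1 and 12 in Foxd1. A TATA box was found for 3 of the 24 genes (12.5%), none of them among these 4, against 15.7% of all genes. Some of the 24 have several promoters, and a gene was counted if any of them held the motif. These matches are letters in a window, not sites shown to be bound.

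The 3 measured FoxO genes did not move together: Foxo3 and Foxo1 rose and Foxo4 fell. Foxo3 is the FoxO factor best known for stress defence and for keeping stem cells quiescent. Its signal was 860.2, 863 and 914 on the DKO arrays, against 274, 293 and 320.0 on the WT arrays. Every DKO array lay above every WT array, and the log2 difference was 1.52 ± 0.054 (SE; adjusted p = 9.89e-11). The other bright Foxo3 probe set had a mean of 440.2 in DKO and 169 in WT, a log2 difference of 1.30 (adjusted p = 5.57e-10 over all probe sets). The dim one differed by 0.15, and with the 3 averaged Foxo3 was at 0.99.

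Foxo1, a mediator of insulin signalling in metabolic tissues, had signals of 152, 165 and 170.4 on the DKO arrays, against 109, 111 and 121 on the WT arrays. The groups did not overlap, and the log2 difference was 0.46 ± 0.063 (SE; adjusted p = 3.40e-05), less than a doubling. It ranged from 0.22 with hybridization spike scaling to 0.92 with poly-A spike scaling and stayed past the threshold. Of its 4 probe sets, 3 rose by 0.20 to 0.46, and the fourth, below 10 in both groups, fell by 0.12. Foxo4, the X-linked member, had 40.04, 44.8 and 39.5 on the DKO arrays, against 95.3, 108 and 107 on the WT arrays. All DKO values were below all WT values, and the log2 difference was -1.05 ± 0.078 (SE; adjusted p = 9.35e-08). The second, dim probe set also fell, by 0.47. The Foxo4 difference was -0.64 with poly-A spike scaling and -0.67 with an offset of 64.

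**Figure D2:**
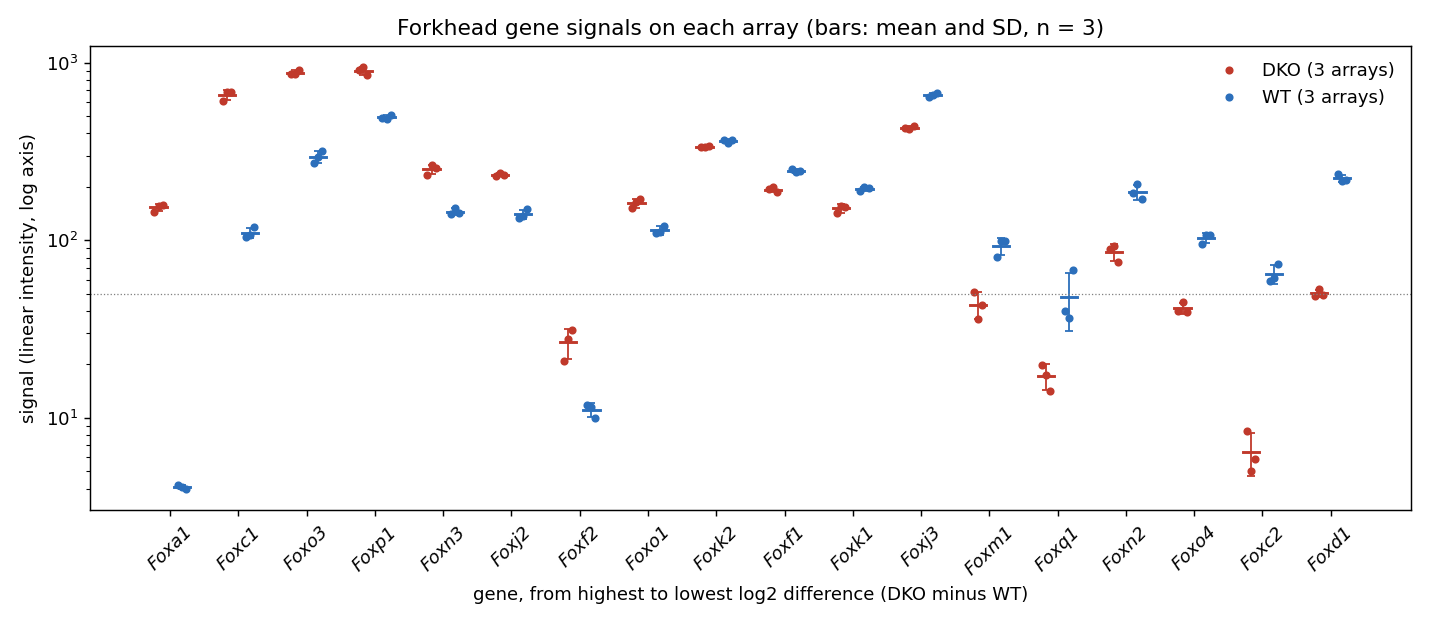
Signal (linear intensity, log axis) on each array for the 16 forkhead genes with a group mean of at least 50 (dotted line) and for Foxf2 and Foxq1, with DKO in red at the left and WT in blue at the right of each gene; dashes are means and bars SD (n = 3). Foxa1 (153 in DKO against 4.07 in WT) and Foxc2 (6.44 in DKO against 64.6 in WT) each sit near the floor of the arrays in 1 group.

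Genes known as FoxO targets were more often higher than lower. Of 32 listed and measured, 16 rose, 6 fell and 10 did not pass, against 24.3% higher and 35.5% lower among all genes. The median was 0.14 against -0.031 for all genes. The count turned on the scaling: it was 24 and 2 with poly-A spike scaling and 13 and 13, with a median of -0.060, with hybridization spike scaling. Pik3ip1, an inhibitor of PI3K, averaged 361 ± 20.5 in DKO and 59.8 ± 5.97 in WT (SD, n = 3 each), and its log2 difference was 2.32 ± 0.069 (SE; adjusted p = 1.96e-11). The autophagy genes Gabarapl1 and Atg14 rose by 1.59 and 1.48. Sesn1, a stress-induced inhibitor of mTORC1 signalling, rose by 1.70, or 0.91 with its probe sets averaged. Txnip, which binds thioredoxin, fell by 1.02, and was at -0.52 with poly-A spike scaling. The cell death genes Bcl2l11 (-0.078) and Bbc3 (-0.061) and the CDK inhibitor gene Cdkn1b (-0.019) did not pass. All 3 passed as higher with poly-A spike scaling (0.42 for Bcl2l11, 0.36 for Bbc3 and 0.47 for Cdkn1b) and as lower with hybridization spike scaling (-0.33 for Bcl2l11, -0.28 for Bbc3 and -0.27 for Cdkn1b). Cdkn1b also passed as higher with probe sets averaged (0.30) and with chromosomes centred (0.27). Bcl2l11 also passed as lower with probe sets averaged (-0.20), with median scaling (-0.18) and with chromosomes centred (-0.12). Cdkn1a, Gadd45a, Sesn1 and Bbc3 are targets of p53 as well as of FoxO. The liver genes G6pc, Pck1 and Igfbp1, classical FoxO1 targets in hepatocytes, had group means no higher than 3.81.

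The heptamer that FoxO proteins bind was found in the promoters of 5 of 30 FoxO target genes with an entry (16.7%), beside the 4.05% of all genes given above. The 30-base windows that hold it are shown to set the letters beside the changes, in capitals on whichever strand they lie, on GRCm38.p6.
Sesn1 (chr10:41810585-41810614, + strand): gaaccttctacTGTTTACcagccttttggg
Trim63 (chr4:134314915-134314944, + strand): cagtctgttctTGTTTACgacccccacggc
Bcl2l11 (chr2:128125800-128125829, + strand): aagacactaggGTAAACAcgccggggtggg
Bbc3 (chr7:16310083-16310112, + strand): tctggcgggttTGTTTACaaacaatggggt
Txnip (chr3:96557825-96557854, + strand): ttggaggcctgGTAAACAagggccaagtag
Of these 5 genes, Sesn1 and Trim63 rose (1.70 and 0.88), Txnip fell (-1.02), and Bcl2l11 and Bbc3 did not pass. Trim63, an atrophy-linked ubiquitin ligase of muscle, was dim, at 23.3 ± 0.963 in DKO and 5.33 ± 1.44 in WT, and its difference was 1.96 with an offset of 1 and 0.33 with 64. Genes with the heptamer were thus found among those that rose, fell and did not pass.

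Genes that control FoxO proteins were mixed. Of 25 measured, 9 rose and 14 fell, against 24.3% higher and 35.5% lower among all genes. The split was 14 and 4 with poly-A spike scaling, and 5 and 15 with hybridization spike scaling. Sgk1, a kinase that phosphorylates FoxO3, had 2663, 2830.2 and 2618 on the DKO arrays, against 161, 181 and 147 on the WT arrays. All DKO values were far above the WT values, with a log2 difference of 3.93 ± 0.062 (SE; adjusted p = 9.08e-14). Pik3r1, the main regulatory subunit of PI3K, averaged 1265 ± 39.6 in DKO and 179 ± 12.2 in WT and rose by 2.71. Pik3ca, a catalytic subunit, rose by 1.47, or 0.87 with probe sets averaged. Akt1 rose (0.21) and Akt2 fell (-0.34), but Akt1 was at -0.042 with hybridization spike scaling, and Akt2 at 0.15 with poly-A spike scaling and 0.40 without x, s or a probe sets. Among the 6 genes of 14-3-3 proteins, Ywhae had the largest difference (-1.04, or -0.53 with poly-A spike scaling). Skp2, a ubiquitin ligase subunit that marks FoxO1 for breakdown, fell by 1.84 and is also listed among the FoxM1 target genes below. Mdm2, a ubiquitin ligase of p53 and of FoxO proteins, rose by 1.95, and by 0.78 once the x, s and a types of probe set, which may match other transcripts, were left out.

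Foxm1, the forkhead factor of dividing cells, was lower in DKO. Its representing probe set had signals of 50.95, 36.1 and 43.4 on the DKO arrays, against 80.8, 99.4 and 98.8 on the WT arrays. No DKO value reached the lowest WT value, and the log2 difference was -0.88 ± 0.10 (SE; adjusted p = 9.10e-06). Another probe set had a mean of 26.2 in DKO and 101 in WT, a log2 difference of -1.47 (adjusted p = 1.12e-09 over all probe sets), and an x type probe set, which may match other transcripts, fell by 1.18. The fourth lay below 3 in both groups. The representing probe set moved least of the 3 that measured a signal, and its difference was -0.46 with poly-A spike scaling and -0.55 with an offset of 64.

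All 24 measured FoxM1 target genes fell, 20 of them at least 2-fold. Among all genes 35.5% were lower, and 8.85% at least 2-fold lower. The median of these targets was -1.81, beside -0.031 for all genes. The median was -1.31 with poly-A and -2.06 with hybridization spike scaling, where 23 and 24 fell. Without x, s or a probe sets, 17 of 19 fell and Cenpa and Top2a rose, by 0.90 and 0.35. Ccnb2, a mitotic cyclin, averaged 100.2 ± 4.22 in DKO and 1093 ± 15.7 in WT (SD, n = 3 each). Bub1, a kinase of the spindle checkpoint, averaged 164 ± 18.01 in DKO and 1081 ± 49.8 in WT. Aurkb, the kinase of the chromosomal passenger complex, and Kif2c, a microtubule-depolymerising kinesin, fell, with -2.84 for Aurkb and -2.55 for Kif2c. With probe sets averaged, Bub1 was at -1.11 and Kif2c at -1.63. These genes are periodic in the cell cycle.

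FoxM1 is recruited to many of its targets by the MuvB complex, which binds the CHR element TTTGAA near the start. This element, on either strand, was found in the promoters of 15 of 20 measured FoxM1 target genes with an entry (75%), against 20.2% of all genes, and the forkhead heptamer in 0 of 20. A CCAAT box was found in 18 of the 20 (90%), against 41.1% of all genes. Windows of 30 bases around the element are shown for the 10 targets with an element within 30 bases of the start, from the largest fall to the smallest, with the element in capitals, on GRCm38.p6.
Ccnb2 (chr9:70421533-70421562, - strand): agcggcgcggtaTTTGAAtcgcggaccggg
Cdc20 (chr4:118437344-118437373, - strand): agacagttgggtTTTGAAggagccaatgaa
Ube2c (chr2:164769888-164769917, + strand): ggagggttgcaaTTCAAAcgcgggcggcgg
Prc1 (chr7:80294434-80294463, + strand): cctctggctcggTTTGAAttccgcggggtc
Cenpa (chr5:30666890-30666919, + strand): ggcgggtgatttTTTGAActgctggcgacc
Plk1 (chr7:122159453-122159482, + strand): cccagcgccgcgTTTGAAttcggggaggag
Top2a (chr11:99024195-99024224, - strand): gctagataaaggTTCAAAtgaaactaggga
Cks1b (chr3:89418291-89418320, - strand): gcgggcggtgtgTTTGAAagcgaggccaaa
Cdk1 (chr10:69352910-69352939, - strand): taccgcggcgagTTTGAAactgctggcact
Cenpf (chr1:189688067-189688096, - strand): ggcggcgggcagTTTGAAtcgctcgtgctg
The log2 differences were -3.26 for Ccnb2, -2.40 for Cdc20, -2.17 for Ube2c, -1.93 for Prc1 and -1.92 for Cenpa. They were -1.86 for Plk1, -1.26 for Top2a, -1.13 for Cks1b, -0.94 for Cdk1 and -0.86 for Cenpf. All 10 passed as lower, while Cenpa and Top2a turned without x, s or a probe sets, as given above. With poly-A spike scaling Cks1b was at -0.61, Cdk1 at -0.42 and Cenpf at -0.38. Of 22 FoxM1 partner genes and genes of the MuvB complex and its relatives, 14 fell and 5 rose. Among all genes 35.5% were lower and 24.3% higher. The median of these 22 genes was -0.54, and -0.064 with poly-A spike scaling. Melk, a kinase of proliferating cells, fell by 2.69 and Rbl1, the pocket protein p107, by 2.19; Rbl1 was at -1.26 with probe sets averaged. The MuvB subunits Lin9 (-1.43) and Lin54 (-1.39, or -0.72 with probe sets averaged) fell, whereas the pocket protein genes Rb1 and Rbl2 rose by 0.52 and 0.79. Rb1 was at 0.054 with chromosomes centred and did not pass. Plk1 is in both lists.

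**Figure D3:**
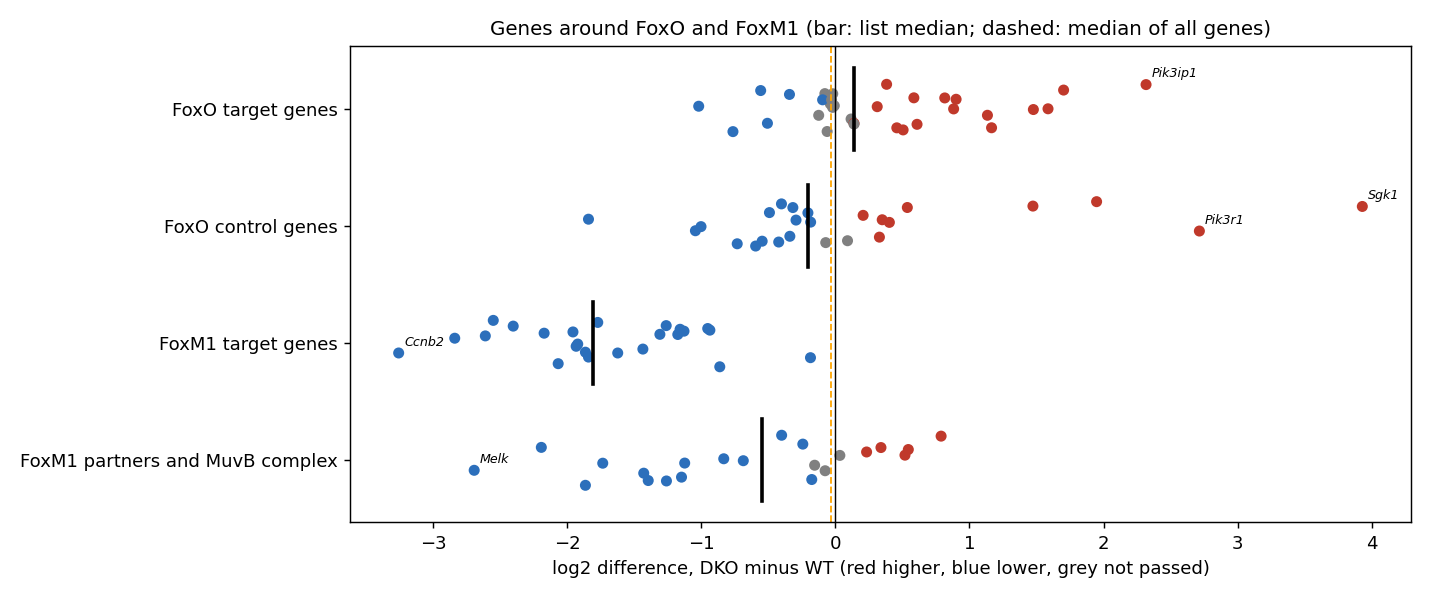
Log2 difference (horizontal axis, DKO minus WT) of each measured gene of the 4 lists around FoxO and FoxM1 (rows, spread vertically only to separate points), with a black bar at the list median and a dashed line at the median of all genes (-0.031). All 24 FoxM1 target genes lie left of 0, with Ccnb2 at -3.26, and the FoxO control genes reach from Skp2 (-1.84) to Sgk1 (3.93).

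Foxa1 had the largest difference of the family. This pioneer factor of endoderm and of hormone-responsive epithelia had signals of 145, 156 and 159 on the DKO arrays, against 4.17, 4.07 and 3.97 on the WT arrays. The WT values were at the floor of the arrays and the DKO values well above it, and the log2 difference was 3.08 ± 0.073 (SE; adjusted p = 2.77e-12); 1.44% of all genes had a larger absolute difference. Its size depended on the offset, at 4.93 with 1 and 1.67 with 64, and Foxa1 has 1 probe set, so no other probe set checks it. Foxa2 and Foxa3, its relatives in endoderm, reached at most 8.195 on any array, with differences of 0.16 and -0.19. All 10 epithelial and liver markers had group means under 50, with summed signals of 96.3 to 111 in DKO and 124 to 128 in WT. Cdh1 and Krt18 were at 2.78 and 3.03 in DKO. None of the 10 rose, 2 fell and 8 did not pass, against 24.3% higher and 35.5% lower among all genes. With poly-A spike scaling 5 of the 10 were higher, and with hybridization spike scaling 9 were lower.

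The mesenchymal factors Foxc1 and Foxc2, close paralogs with overlapping roles in somites, vessels and kidney, changed in opposite directions. Foxc1 had 608, 688 and 681 on the DKO arrays, against 104, 107 and 119 on the WT arrays. Every DKO value exceeded every WT value, and the log2 difference was 2.42 ± 0.061 (SE; adjusted p = 4.50e-12). Its second probe set had a mean of 579.9 in DKO and 169 in WT, a log2 difference of 1.69 (adjusted p = 2.63e-11 over all probe sets). Foxc2 had 8.39, 5.03 and 5.899 on the DKO arrays, against 59.1, 60.99 and 73.8 on the WT arrays. DKO values were at the floor, and the log2 difference was -1.84 ± 0.086 (SE; adjusted p = 1.25e-09), or -3.16 with an offset of 1 and -0.87 with 64. Their 95% intervals were 2.29 to 2.55 for Foxc1 and -2.03 to -1.65 for Foxc2.

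These genes lie in forkhead clusters, in each of which a Foxf gene stands before a Foxc gene. On chromosome 13 the order is Foxq1, Foxf2 and Foxc1, and on chromosome 8 it is Foxf1, Foxc2 and Foxl1. The measured gene 1700018A04Rik lies between Foxq1 and Foxf2 and did not pass (0.023). Foxf2, which patterns the mesenchyme of gut and palate, was dim but higher in DKO, at 20.9, 27.8 and 31.2, against 11.8, 11.6 and 9.98 in WT. Its log2 difference was 0.65 ± 0.082 (SE; adjusted p = 1.65e-05), and its other probe set, below 10 in both groups, fell by 0.12. Foxq1, known from the mouse hair mutant satin, had 19.97, 17.5 and 14.2 on the DKO arrays, against 39.8, 36.6 and 67.7 on the WT arrays, with WT replicate 3 well above the other two. The groups did not overlap, and the log2 difference was -0.92 ± 0.15 (SE; adjusted p = 1.27e-04). Offsets of 1 and 64 put Foxf2 at 1.17 and 0.27 and Foxq1 at -1.39 and -0.45. Of the 3 measured neighbours before Foxq1, Exoc2 (1.04) and Irf4 (0.47, dim) rose and Dusp22 (-1.09) fell. Of the 3 after Foxc1, Gmds rose (1.59, or 1.01 with probe sets averaged), Mylk4 did not pass and Wrnip1 fell (-0.75). With poly-A spike scaling Dusp22 was at -0.63 and Wrnip1 at -0.25. Bright genes on chromosome 13, those with a mean log2 value above 7, had a median difference of 0.34.

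Foxf1, the Hedgehog-induced factor of visceral mesoderm, had 194, 199 and 187 on the DKO arrays, against 253, 242 and 245 on the WT arrays. The groups did not overlap, with a small log2 difference of -0.33 ± 0.048 (SE; adjusted p = 6.81e-05). With hybridization spike scaling it was at -0.57. Its direction turned with poly-A spike scaling (0.16, adjusted p = 0.15) and with chromosomes centred (0.17, adjusted p = 0.00775), where bright genes of chromosome 8 had a median of -0.49. The second Foxf1 probe set differed by -0.17 and did not pass. Foxl1, a factor of the gut mesenchyme, was near the floor in both groups (10.9 in DKO and 13.8 in WT), and its call was lost without 5 of the 6 arrays in turn. Mthfsd, which lies between Foxf1 and Foxc2, fell by 1.01, and was at -0.58 with poly-A spike scaling. Fendrr, the long noncoding RNA gene beside Foxf1, differed by -0.57, or -0.17 with poly-A spike scaling, where its call was lost. Irf8, beyond Fendrr, fell (-1.79, or -0.91 with an offset of 64), as did Cox4i1 (-0.52, or -0.0058 with poly-A spike scaling). Beyond Foxl1, Fbxo31 fell (-2.90, or -1.93 with an offset of 64), Map1lc3b rose (0.46, or 0.20 with hybridization spike scaling) and 1700018B08Rik did not pass. Of 13 Hedgehog genes upstream of the Foxf genes, 3 rose and 7 fell, against 24.3% higher and 35.5% lower among all genes. Gas1, a Hedgehog co-receptor gene, rose by 3.77, and Boc by 1.21 (0.58 with an offset of 64, and 0.70 with probe sets averaged). Gli2, the main activating transcription factor of the pathway, fell by 0.88 (-0.40 with poly-A spike scaling). Cdon was at -0.47, or 0.018 with poly-A spike scaling. Gli1 was dim (7.22 in DKO and 23.7 in WT) and passed as lower, at -0.77, or -1.59 with an offset of 1 and -0.30 with 64. The split was 6 and 2 with poly-A and 3 and 9 with hybridization spike scaling.

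Foxd1, the marker of the stromal progenitors of the kidney, was lower in DKO. It had 48.9, 52.9 and 49.4 on the DKO arrays, against 236, 216 and 219 on the WT arrays. The groups were far apart, with a log2 difference of -1.85 ± 0.063 (SE; adjusted p = 6.50e-11), which stayed between -2.13 and -1.33 over all alternatives. Foxd1 has 1 probe set and lies on chromosome 13 too. Foxd2, Foxd3 and Foxd4 had group means of at most 29.3. Foxd3, a factor of neural crest and pluripotent cells, did not pass (-0.063).

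Foxp1, a repressor with roles in heart, lung and lymphocytes, was higher in DKO on every probe set. The representing one had 910.2, 941 and 855 on the DKO arrays, against 489, 480.1 and 511 on the WT arrays. The groups did not overlap, and the log2 difference was 0.85 ± 0.046 (SE; adjusted p = 4.43e-09), or 1.35 with poly-A spike scaling. All 8 Foxp1 probe sets rose, and the 6 with a group mean of at least 50 rose by 0.29 to 1.05. The probe sets differed in size and not in direction. Foxp4, its relative in lung and gut, was dim (33.7 in DKO and 41.98 in WT), and its small fall (-0.22) was lost with probe sets averaged. Foxp2, known for speech circuits in human, was below 10 on all 6 of its probe sets, and Foxp3, which defines regulatory T cells, was below 11 on every array.

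**Figure D4:**
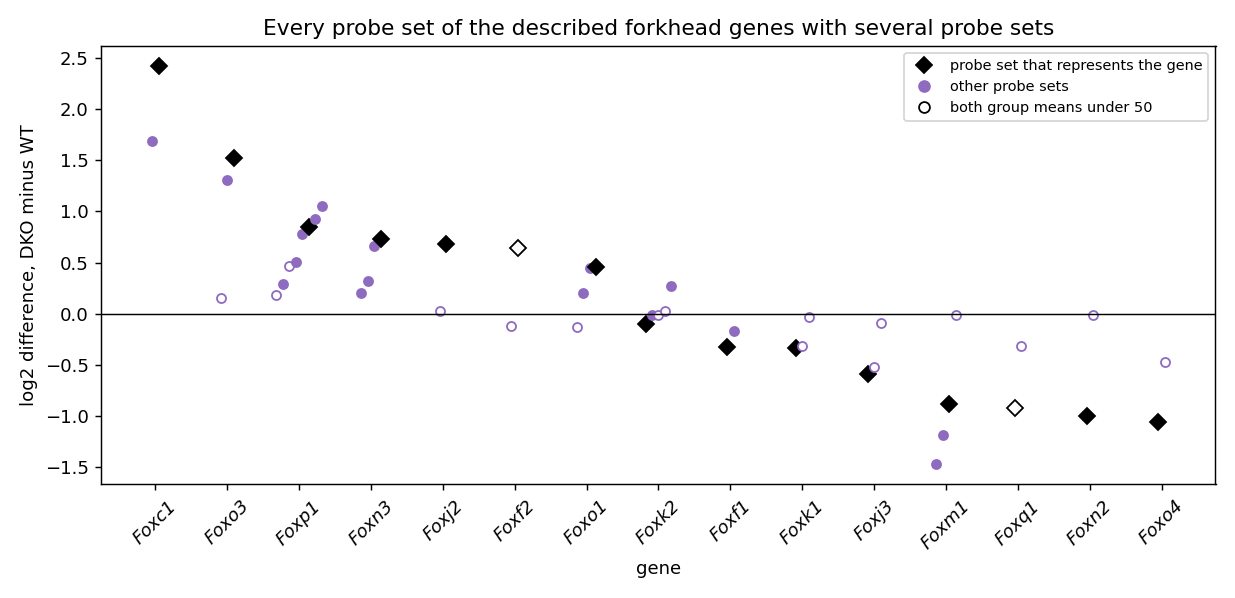
Log2 difference (vertical axis, DKO minus WT) of every probe set of the described forkhead genes that have several, with the representing probe set as a black diamond, others as purple circles and open symbols where both group means are under 50. All Foxp1 and Foxn3 probe sets lie above 0, and the Foxk2 probe sets lie on both sides, from -0.098 to 0.27.

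The paralogs Foxn2 and Foxn3 also moved in opposite directions. Foxn3, a repressor first found as a suppressor of checkpoint mutants in yeast, had 234, 265 and 254 on the DKO arrays, against 140.0, 152 and 143 on the WT arrays. No WT value reached the DKO values, and the log2 difference was 0.73 ± 0.058 (SE; adjusted p = 2.08e-07), from 0.48 with probe sets averaged to 1.204 with poly-A spike scaling. Its 3 other probe sets rose too, by 0.20 to 0.66. Foxn2 had 89.2, 92.7 and 75.5 on the DKO arrays, against 184, 207 and 171 on the WT arrays. DKO values were about as far below WT as the 2-fold limit asks, at -0.996 ± 0.083 (SE; adjusted p = 3.15e-07), or -0.54 with poly-A spike scaling and -0.50 when averaged with a probe set at the floor. Foxn1, the gene of the nude mouse and a factor of thymic epithelium, was below 6 in both groups.

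Foxj2 and Foxj3 formed a further pair with opposite signs. Foxj2 had 230.3, 240.4 and 233 on the DKO arrays, against 134, 136 and 149.9 on the WT arrays, without overlap and with a log2 difference of 0.68 ± 0.056 (SE; adjusted p = 2.53e-07). It was at 1.16 with poly-A and 0.44 with hybridization spike scaling. Its other probe set, below 10 in both groups, did not pass (0.031), and with both averaged Foxj2 was at 0.36. Foxj3 had 430.0, 421 and 442 on the DKO arrays, against 638, 655 and 671 on the WT arrays. Its DKO values were all lower, and the log2 difference was -0.59 ± 0.041 (SE; adjusted p = 5.23e-08). Its 2 other probe sets fell by 0.52 and 0.087. Bright genes of chromosome 4, on which Foxj3 lies, had a median of -0.72, and the part of this shift in the Foxj3 value was not tested. With chromosomes centred Foxj3 was at 0.14 (adjusted p = 0.00897). With poly-A spike scaling it was at -0.082 and did not pass (adjusted p = 0.437). Foxj1, the master regulator of motile cilia, was dim (13.4 in DKO and 16.3 in WT). Of 17 measured motile cilia genes, 1 had a group mean of at least 50, the dynein gene Dnah11, at 34.3 ± 3.46 in DKO and 65.1 ± 4.91 in WT. It was at -0.31 with poly-A spike scaling and -0.39 with an offset of 64, against -0.69. Of the 17 genes 3 rose and 7 fell, a share called near the 59.8% of all genes, and the split turned to 10 and 4 with poly-A and was 1 and 11 with hybridization spike scaling.

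Foxk1 and Foxk2, repressors that act with Sin3 complexes in autophagy and metabolism, changed little. Foxk1 had 142, 157 and 155 on the DKO arrays, against 189, 199 and 198 on the WT arrays, without overlap and with a log2 difference of -0.34 ± 0.056 (SE; adjusted p = 1.78e-04), which turned to 0.14 (adjusted p = 0.219) with poly-A spike scaling and was -0.58 with hybridization spike scaling. Foxk2 had 334, 337 and 341 on the DKO arrays, against 367, 353 and 366 on the WT arrays. These groups did not overlap either, yet the log2 difference of -0.098 ± 0.041 (SE; adjusted p = 0.0599) did not pass, and its 95% interval was -0.19 to -0.0074. Another Foxk2 probe set was higher in DKO, with a mean of 137 in DKO and 111 in WT, a log2 difference of 0.27 (adjusted p = 0.00254 over all probe sets). Foxk2 passed as lower with hybridization spike scaling (-0.35, adjusted p = 1.11e-04), with median scaling (-0.20, adjusted p = 0.00122) and with chromosomes centred (-0.24, adjusted p = 3.12e-04). It also passed as lower with an offset of 64 and with limma fitted without a variance trend. It passed as higher with poly-A spike scaling (0.40, adjusted p = 1.53e-04) and was at 0.033 with probe sets averaged, so its direction was not settled. Of 15 genes that work with FoxP or FoxK factors as corepressors or partners, 2 rose and 8 fell, or 9 and 4 with poly-A spike scaling. Among all genes 24.3% were higher and 35.5% lower. Nfatc4, a calcineurin-regulated transcription factor gene, rose by 2.92 (1.12 with probe sets averaged), and the deacetylase gene Hdac1, on chromosome 4, fell by 1.54, and was at -0.82 with chromosomes centred. Sin3b differed by -0.77 and turned to 0.32 without x, s or a probe sets.

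**Figure D5:**
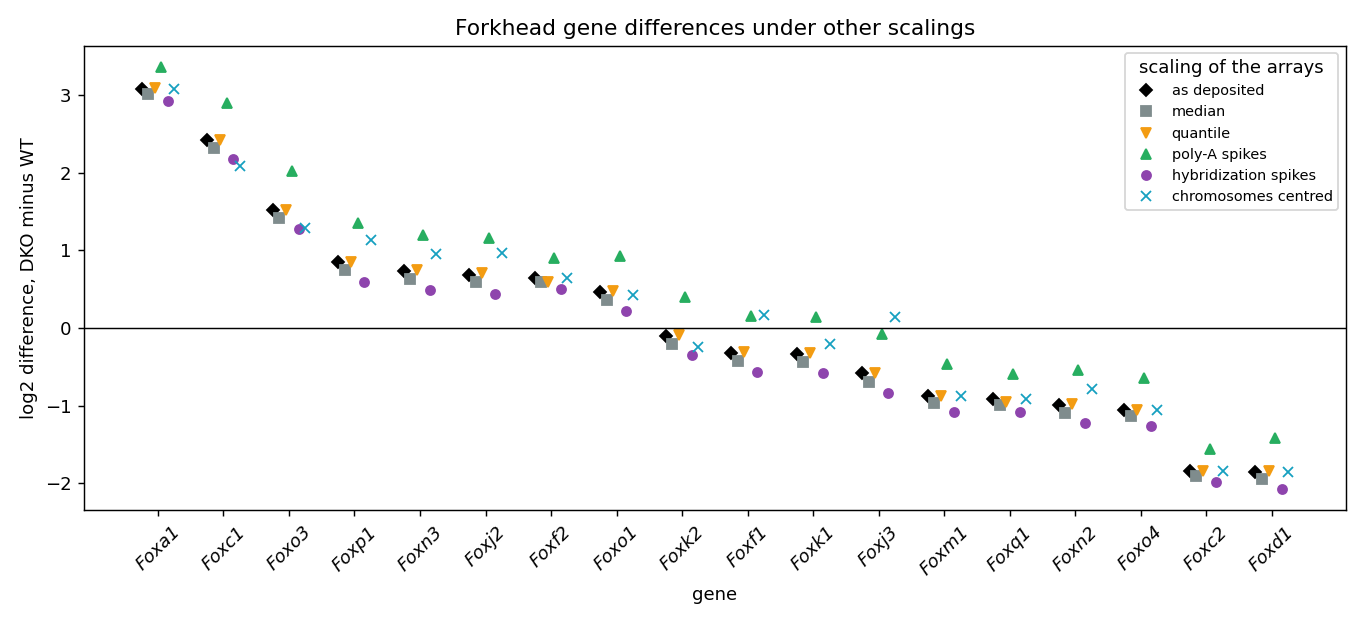
Log2 difference (vertical axis, DKO minus WT) of the 18 described forkhead genes under 6 scalings of the arrays (symbols). Foxa1, Foxc1, Foxo3, Foxp1, Foxn3, Foxj2, Foxf2 and Foxo1 lie above 0 and Foxm1, Foxq1, Foxn2, Foxo4, Foxc2 and Foxd1 below 0 under each of the 6, while Foxk2, Foxf1 and Foxk1 cross 0 with poly-A spike scaling and Foxf1 and Foxj3 with chromosomes centred.

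The other 19 forkhead genes had group means of 3.19 to 41.98, 15 of them under 20 in both groups, with differences of -0.22 to 0.16. At this level a difference is small beside the floor of the arrays, and these genes were not shown to be expressed. Foxa2 was higher, and Foxa3, Foxb2, Foxd2, Foxe3, Foxj1, Foxl1, Foxl2, Foxp3 and Foxp4 were lower. The lower ones include factors of other organs, such as Foxe3 of the lens and Foxl2 of the ovary. Foxb1, Foxd3, Foxd4, Foxh1, Foxi1, Foxn1, Foxn4, Foxp2 and Foxs1 did not pass. Foxh1, the Smad partner in Nodal signalling, stayed between 23.1 and 31.4 on its representing probe set. With poly-A spike scaling, 9 of these 19 lost their call, all but Foxa2 among the 10. With the same scaling Foxb1, Foxd3, Foxh1, Foxi1, Foxn1, Foxn4 and Foxs1 gained a call as higher. With an offset of 1, Foxb2, Foxj1, Foxl1 and Foxp3 lost their call and Foxd4 gained a call as lower. Foxb2, Foxj1, Foxl1 and Foxp3 did not pass in the fit over all probe sets either.

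Markers of cell types in which forkhead genes are known were set beside these values. All 9 measured leukocyte markers and all 10 endothelial markers had group means under 50, with summed signals of 87.3 to 96.8 in DKO and 93.6 to 96.9 in WT for leukocytes and 72.5 to 80.6 in DKO and 77.7 to 88.8 in WT for endothelium. Ptprc and Pecam1 were at 2.64 and 3.21 in DKO. Of 8 neural markers 3 rose, 2 fell and 3 did not pass, with a median of -0.047, and the share called is near that of all genes. Sox2, a neural and pluripotency factor, averaged 236 ± 51.8 in DKO and 3.67 ± 1.03 in WT and Nes, an intermediate filament of progenitors, 229 ± 17.02 in DKO and 40.6 ± 1.62 in WT (SD, n = 3 each). The Sox2 difference was 5.66 with an offset of 1 and 2.13 with 64. The neuronal genes Tubb3 (-1.504, or -0.69 with an offset of 64) and Map2 (-1.34, or -0.37 with probe sets averaged) fell, and Snap25 was at 2.32 in DKO and 2.19 in WT. The summed neural signal was 499.6 to 589 in DKO and 243 to 257 in WT. Most of the DKO sum came from Sox2 and Nes. Of 6 measured neural crest and glia markers, Mbp and Ngfr rose, Erbb3 fell and 3 did not pass, against 24.3% higher and 35.5% lower among all genes. Their summed signal was 202 to 227 in DKO and 294 to 339.8 in WT. The split was 1 higher and 2 lower with probe sets averaged and with hybridization spike scaling, and 4 and 1 with poly-A spike scaling. With probe sets averaged Mbp was at 0.52, against 2.26, and Erbb3 at -1.51, against -3.002. Among 14 fibroblast markers 9 rose and 2 fell, against 24.3% higher and 35.5% lower among all genes. The 2 that fell are Col1a2 and Col3a1, given above. Prrx1, among those that rose, averaged 2888 ± 105 in DKO and 136 ± 8.19 in WT, a log2 difference of 4.26. The part of these cell types in the forkhead differences was not tested.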

How the data were processed

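The deposited table holds linear intensities of 45101 probe sets on 6 Affymetrix arrays, 3 DKO and 3 WT. MAS5 is named in the submitters' processing notes; the sources used here give neither its version nor the scaling. The deposited intensity values were already at a similar scale across arrays, and the table holds no detection calls. Of 35890 annotated probe sets, 34945 had 1 gene symbol and 932 several. A further 9160 probe sets, controls aside, were absent from the annotation and unnamed here. Of those with 1 symbol, 34741 were matched by Entrez number to RefSeq names (GRCm38.p6). Each of 18193 genes was represented by its single-gene probe set with the highest mean. Values were log2(signal + 16), fitted with limma 3.58.1 in R 4.3.3 (lmFit, eBayes with trend, two-sided) and adjusted by Benjamini-Hochberg over all genes, or over 45037 probe sets for single probe sets. Genes passed at an adjusted p under 0.05. Forkhead genes with a group mean of at least 50 are described with all values, and up to 4 genes of each list by the largest passing differences with a group mean of at least 50. The members and lists were chosen with earlier results of these data known. Foxf2, Foxq1 and the neighbours of the clusters and list genes beyond the 4 with the largest passing differences were named after their values were seen. Motifs were searched as exact letters in RefSeq promoters, 250 bases before to 50 after the start. Alternatives were other offsets (1 and 64), scalings, a filter on dim genes, probe set choices, variance models, the replicate block, chromosome centring and leaving out each array. Figures were drawn with matplotlib 3.10.9.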

Additional observations from a re-analysis of the deposited data

How the results depend on the processing

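Of 18193 genes, 10873 passed, 4416 higher and 6457 lower in DKO, with 1284 and 1610 at least 2-fold. Poly-A spike scaling gave 10424 higher and 2827 lower, with 2318 and 864 at least 2-fold; hybridization spike scaling gave 10722 lower, and an offset of 64 gave 958 lower at least 2-fold. For the forkhead genes, poly-A spike scaling gave 17 higher and 6 lower, with 6 higher at least 2-fold. Those at least 2-fold lower were 6 with an offset of 1, 1 with 64 and 6 with hybridization spike scaling, against 3. Leaving out dim genes kept 15 forkhead genes in the fit, of which 14 passed and 7 were lower. Without each array in turn, 22 to 24 forkhead genes passed, 9 higher and 13 to 15 lower, with 3 to 5 at least 2-fold lower.

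Directions turned with chromosomes centred for Foxf1 (0.17), Foxj3 (0.14), Abl2 (0.15) and Cdkn1b (0.27); with hybridization spike scaling for Akt1 (-0.042); without x, s or a probe sets for Akt2 (0.40), Cenpa (0.90), Sin3b (0.32) and Top2a (0.35); with poly-A spike scaling for Foxf1 (0.16), Foxk1 (0.14), Foxk2 (0.40), Abl1 (0.36), Abl2 (0.48), Akt2 (0.15), Bbc3 (0.36), Bcl2l11 (0.42), Cdkn1b (0.47) and Cdon (0.018); with probe sets averaged for Foxk2 (0.033), Abl1 (0.13) and Cdkn1b (0.30); with quantile normalization for Abl2 (0.015). Without each array in turn, Abl2 lay between -0.044 and 0.019, Bbc3 lay between -0.11 and 0.0043 and Cdkn1b lay between -0.069 and 0.024. The cause of each was not tested. Without each array in turn, no forkhead gene described with all its values lost its call.

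Arrays with the same replicate number had correlated deviations of 0.04 to 0.17, against -0.13 to 0.02 for other pairs. Each array correlated best with its own number, a hint from the data and not from the labels. With the replicate number as a block, 10944 genes and 27 forkhead genes passed, 9 higher and 18 lower, and no forkhead call changed. Signals of most dim members lie near the floor of the arrays, which limits what their differences show.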
